A study of Canis lupus familiaris with 25 samples.

Results

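Ultrasound-guided fine-needle aspirates (US-FNA) of the non-malignant canine prostate were compared with non-malignant prostate tissue, by RNA-Seq read counts per gene. The samples were chosen from the labels, as every sample with a non-malignant diagnosis: 5 aspirates, numbered 7, 13, 15, 32 and 40 in the labels, and 9 tissues, numbered PT-10 to PT-18, which are 14 of the 25 samples sequenced. The study asked whether material from a thin needle can stand in for tissue in transcriptome work, and the non-malignant samples address this with no tumour present. The other 11 samples, from dogs with a malignant diagnosis, enter here only where the difference between US-FNA and tissue is set beside the same difference in malignant prostate.

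All 14 samples came from intact male dogs and were labelled normal to hyperplastic. The dogs with US-FNA were 4 to 10 years old (median 7) and those with tissue 1 to 16 years (median 6), a difference in mean age of -0.756 years (two-sided exact permutation test, p = 0.792). Sample type went together with several other features of the design. US-FNA samples were taken from living dogs, diagnosed by cytology and extracted with Qiazol and the miRNeasy Micro kit, while tissues were taken after death, diagnosed by histopathology, broken up with beads and extracted with the AllPrep Universal kit. The dogs were also different individuals of several breeds, and the effects of these features and of the needle cannot be told apart.

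Reads counted on genes amounted to 4996566 in US-7, 3355926 in US-13, 4704786 in US-15, 4239531 in US-32 and 4893225 in US-40. In tissue they ranged from 4258267 to 6594032 with a median of 5002318. The depths of the groups thus overlapped, with US-13 the shallowest of the 14 samples.

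The prostate gland consists of secretory luminal epithelium over basal cells, set in a stroma of smooth muscle and connective tissue with vessels and nerves. A needle under suction draws up loose cells and fluid, including blood, whereas a block of tissue keeps the stroma in place. Luminal cells respond to androgens and release kallikreins and acid phosphatase into the prostatic fluid, while red blood cells and their precursors carry haemoglobin transcripts.

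Of the 13 genes reported here by name, the 5 haemoglobin genes were higher in all 5 US-FNA samples than in any tissue. None of the 8 prostate, cell cycle and growth genes differed past the threshold. The study had named the 5 for being higher in these same aspirates and in the malignant ones, and the 8 for changes in malignant samples. The split between the 5 and the 8 thus follows in part from how they were chosen. Across the transcriptome, 2729 of 15210 genes tested (17.9%) differed between US-FNA and tissue at a false discovery rate (FDR) under 0.05 in the quasi-likelihood test of edgeR. Of these, 1116 genes (7.34% of those tested) were higher and 1613 (10.6%) were lower in US-FNA. Without adjustment, 5055 genes had a p under 0.05. The level of a gene is given below in CPM, its count scaled to a common library size after TMM normalisation, and a positive log2 fold change means a higher level in US-FNA.

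Haemoglobin carries oxygen in red blood cells and is built from alpha-type and beta-type chains. HBB, the main adult beta chain, amounted to 2998 CPM in US-7, 8628 in US-13, 3181 in US-15, 1778 in US-32 and 104 in US-40, against 0.162 to 27.5 CPM in tissue (median 7.62). The lowest aspirate, US-40, was still above the highest tissue, and US-13 was the highest. Its log2 fold change was 8.42 (SE 0.90, edgeR FDR 3.77e-05, higher in 5 of 5 US-FNA samples than in all 9 tissues). In bulk RNA, more cells of a type and more RNA per cell cannot be told apart, and the same holds for fewer cells and less RNA.

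HBD, another beta-type chain, amounted to 456 CPM in US-7, 316 in US-13, 33.4 in US-15, 43.5 in US-32 and 4.28 in US-40. It had no count in 4 of the 9 tissues and at most 4 counts in the others, where it reached 0.819 CPM. The groups did not overlap, with a log2 fold change of 9.22 (SE 0.95, edgeR FDR 2.6e-05, 5 of 5 US-FNA samples higher). US-7 exceeded US-13 in HBD, in contrast to HBB.

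The genes of the alpha chains, HBA1 and HBA2, are near-identical copies, so that a read can match both, which makes the value of each alone uncertain. If such reads were left out of the counts, both values and the summed haemoglobin share are too low. HBA1 ranged from 50.7 CPM in US-40 to 4352 in US-13 and from 0.162 to 12.4 in tissue (log2 fold change 8.17, SE 0.84, edgeR FDR 2.6e-05, 5 of 5 higher). HBA2 ranged from 63.7 CPM in US-40 to 5766 in US-13 and from 0 to 18.8 in tissue (log2 fold change 8.07, SE 0.87, edgeR FDR 3.77e-05, 5 of 5 higher). Both alpha genes thus had their lowest US-FNA value in US-40 and their highest in US-13, as HBB did. The study also graded the blood in each aspirate by eye, a measure that is not in the labels and was not used here, and the part of blood in these values was not tested.

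Haemoglobin subunit mu, an alpha-type chain of the erythroid lineage, was much scarcer. It amounted to 12.4 CPM in US-7, 65.0 in US-13, 19.9 in US-15, 5.95 in US-32 and 0.559 in US-40, the last of which rests on 3 counts. In tissue, 7 of 9 samples had no count and the highest had 2 counts (0.491 CPM). The log2 fold change was 7.84 (SE 0.92, edgeR FDR 8.37e-05, 5 of 5 higher), with an approximate 95% interval of 6.03 to 9.64. At these counts the gap between US-40 and the highest tissue is within counting error.

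Taken as a share of all counts on genes, the 5 haemoglobin genes together made up 0.701% in US-7 (95% Wilson interval 0.693% to 0.708%), 1.99% in US-13 (1.98% to 2.01%), 0.460% in US-15 (0.4539% to 0.4661%), 0.351% in US-32 (0.345% to 0.356%) and 0.0245% in US-40 (0.0231% to 0.0259%). The tissue shares ran from 4.44e-05% in PT-13 to 0.00487% in PT-18. PT-13 had 2 haemoglobin counts, fewer than the detection floor of 3, and its share has an interval of 1.22e-05% to 0.000162%. Intervals cover counting error only. The mean log2 share was higher in US-FNA by 8.13 (two-sided, p = 0.0005 by exact permutation, which is the lowest p possible with the 2002 ways of choosing 5 of the 14 samples). The study had named these genes for a rise in the same aspirates, so that this p follows in part from their choice. HBB held 48.0% of the haemoglobin counts.

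**Figure D1:**
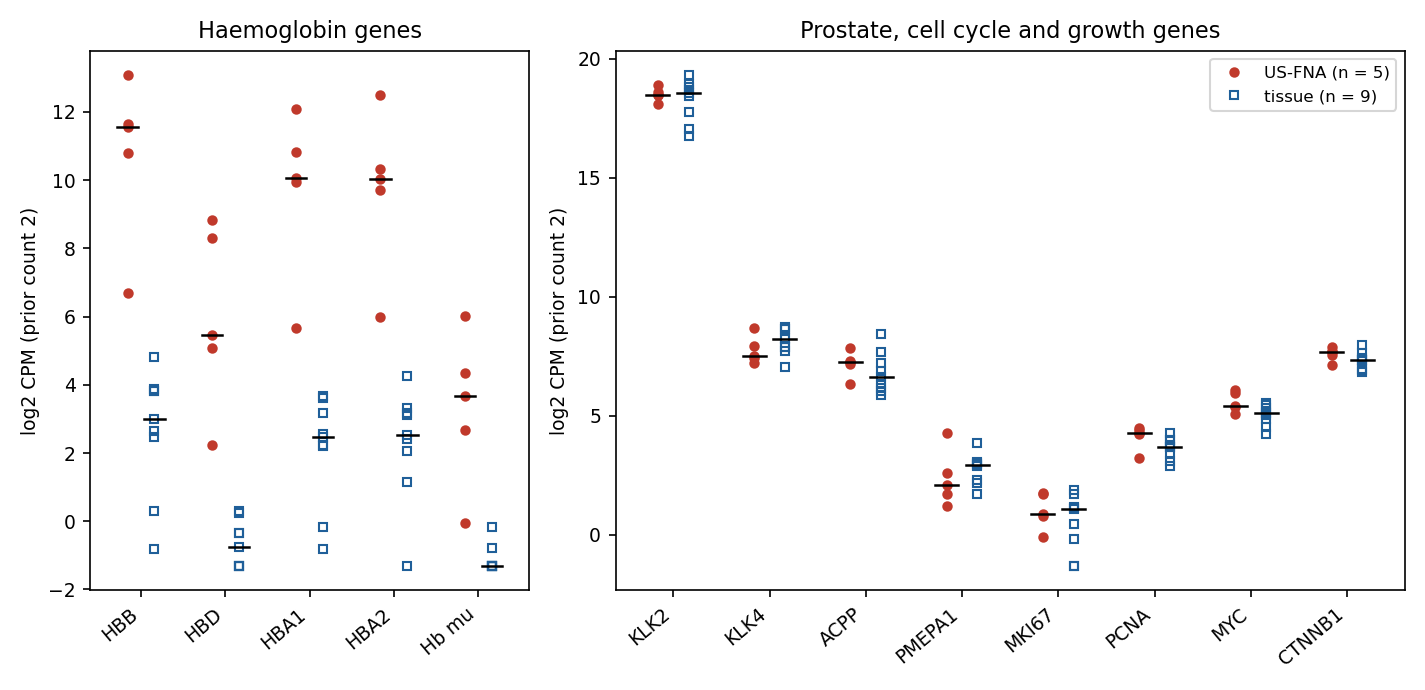
Level of the 13 named genes in each US-FNA sample (filled circles, n = 5) and each tissue (open squares, n = 9), as log2 CPM with a prior count of 2, with bars at the group medians. The haemoglobin genes of the left panel do not overlap between the groups, while each gene of the right panel overlaps, as KLK2 does with US-FNA samples between 284700 and 488700 CPM and tissues between 109700 and 650400.

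KLK2, a secreted serine protease of the luminal epithelium known in dogs as the prostate-specific arginine esterase, was the most abundant gene in all 14 samples. It took 39.1% of the counts in US-7, 29.6% in US-13, 43.8% in US-15, 36.03% in US-32 and 40.02% in US-40, with Wilson intervals at most 0.0977 percentage points wide. The US-FNA shares lay inside the tissue range, which ran from 15.7% in PT-17 over a median of 39.3% to 48.2% in PT-12. The main secretory transcript of the labelled organ was thus at the top of every library of both types.

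The mean KLK2 share was 37.7% ± 5.32 (SD, n = 5) in US-FNA and 33.5% ± 11.5 (SD, n = 9) in tissue, a difference of 4.26 percentage points (two-sided exact permutation test, p = 0.453). With each sample left out it ran from 2.04 without PT-17 to 6.29 without US-13 (exact permutation p at least 0.273). In the gene-wise fit its log2 fold change was 0.07 (SE 0.69, edgeR FDR 0.959) with a 95% interval of -1.29 to 1.43. Its width depended on the model, with an SE of 0.35 in DESeq2, 0.51 with a filter over the 2 groups and 1.10 in 1 edgeR fit of all 4 groups. The tissues with low shares were PT-17 (15.7%), PT-13 (18.5%) and PT-10 (23.6%), and no US-FNA sample was as low as these.

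KLK4, a related kallikrein protease of the prostate, amounted to 171 CPM in US-7, 242 in US-13, 183 in US-15, 416 in US-32 and 151 in US-40, against 131 to 428 CPM in tissue (median 303). The groups overlapped over their whole range, and the log2 fold change was -0.35 (SE 0.29, edgeR FDR 0.425). ACPP, the acid phosphatase secreted into prostatic fluid, amounted to 158 CPM in US-7, 79.6 in US-13, 152 in US-15, 145 in US-32 and 231 in US-40, with tissues from 58.0 to 351 (median 98.8). All 5 values again lay inside the tissue range. Its log2 fold change was 0.21 (SE 0.38, edgeR FDR 0.745), with a 95% interval of -0.54 to 0.96.

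PMEPA1, an androgen-induced membrane protein that dampens TGF-beta signalling, had low levels that were uneven among the aspirates. It amounted to 1.88 CPM in US-7, 19.2 in US-13, 5.69 in US-15, 2.85 in US-32 and 3.91 in US-40, against 2.87 to 14.04 in tissue (median 7.12). US-13 was above every tissue, while US-7 and US-32 were below every tissue, the latter with 11 counts against 14 in the lowest tissue. The log2 fold change was -0.07 (SE 0.48, edgeR FDR 0.935). It moved to -0.93 without US-13 and to 0.17 without US-7, and neither passed the threshold.

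MKI67, a nuclear protein of dividing cells, was close to the detection limit with at most 16 counts in any sample. It ranged from 0.518 to 3.004 CPM in US-FNA and from 0 to 3.28 in tissue, where 2 samples had no count. Its log2 fold change was 0.35 (SE 0.72, edgeR FDR 0.769), with a 95% interval of -1.06 to 1.76.

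PCNA, the sliding clamp of DNA replication, amounted to 20.5 CPM in US-7, 18.6 in US-13, 22.04 in US-15, 9.06 in US-32 and 18.8 in US-40, against 6.90 to 18.8 in tissue (median 12.5). It was above every tissue in 3 aspirates, in US-40 by a margin under the rounding given here, and below the tissue median in US-32. The log2 fold change was 0.50 (SE 0.26, edgeR FDR 0.183), which did not pass.

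MYC, a transcription factor that promotes growth, came closest to the threshold among the genes other than haemoglobin. It amounted to 41.9 CPM in US-7, 67.3 in US-13, 62.3 in US-15, 33.1 in US-32 and 40.6 in US-40, with tissues from 18.4 to 45.8 (median 33.9). US-13 and US-15 lay above every tissue, whereas the other aspirates lay within. Its log2 fold change was 0.56 (SE 0.23, edgeR FDR 0.0917). CTNNB1, the beta-catenin of cell junctions and Wnt signalling, ranged from 139 to 235 CPM in US-FNA and from 114 to 252 in tissue (log2 fold change 0.26, SE 0.20, edgeR FDR 0.377).

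Among the IDs without a name, the largest rises and falls, among those whose mean reached 1 CPM and whose groups did not overlap, were of a size like that of haemoglobin. ENSCAFG00000029568 amounted to 965 CPM in US-7, 1901 in US-13, 134 in US-15, 253 in US-32 and 25.3 in US-40, against 0 to 3.603 in tissue. As with HBB, US-13 was the highest and US-40 the lowest aspirate. Its log2 fold change was 9.18 (SE 0.91, edgeR FDR 2.6e-05, 5 of 5 higher).

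ENSCAFG00000015768 had the lowest FDR of all genes. It amounted to 12.0 CPM in US-7, 46.4 in US-13, 11.1 in US-15, 10.9 in US-32 and 5.96 in US-40, whereas 7 tissues had no count and the others had 1 count each. The log2 fold change of 7.98 (SE 0.65, edgeR FDR 6.08e-06, 5 of 5 higher) has an approximate 95% interval of 6.71 to 9.26 and rests on tissue counts at the floor. At an FDR under 0.00001, the threshold of the study, edgeR called 2 genes (0.0131%), of which it is one, and DESeq2 called 449 of 16275 (2.76%), with 122 higher and 327 lower.

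The strongest falls were abundant in tissue and scarce in the aspirates. ENSCAFG00000008756 ranged from 107.6 to 2898 CPM in tissue (median 303), with the highest value in PT-10. It had no count in US-7 and US-32, and 0.573 CPM in US-13, 0.711 in US-15 and 0.745 in US-40, which stand for at most 4 counts. It fell by 10.82 on the log2 scale (SE 1.23, edgeR FDR 6.05e-05, 5 of 5 lower), with an approximate 95% interval of -13.22 to -8.41.

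ENSCAFG00000018560 ranged from 438 to 9241 CPM in tissue (median 1032), again with its highest value in PT-10. It amounted to 2.07 CPM in US-7, 6.87 in US-13, 3.08 in US-15, 2.33 in US-32 and 1.30 in US-40. All 5 aspirates were thus far below the lowest tissue, and the gene fell by 9.90 on the log2 scale (SE 1.11, edgeR FDR 5.93e-05).

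**Figure D2:**
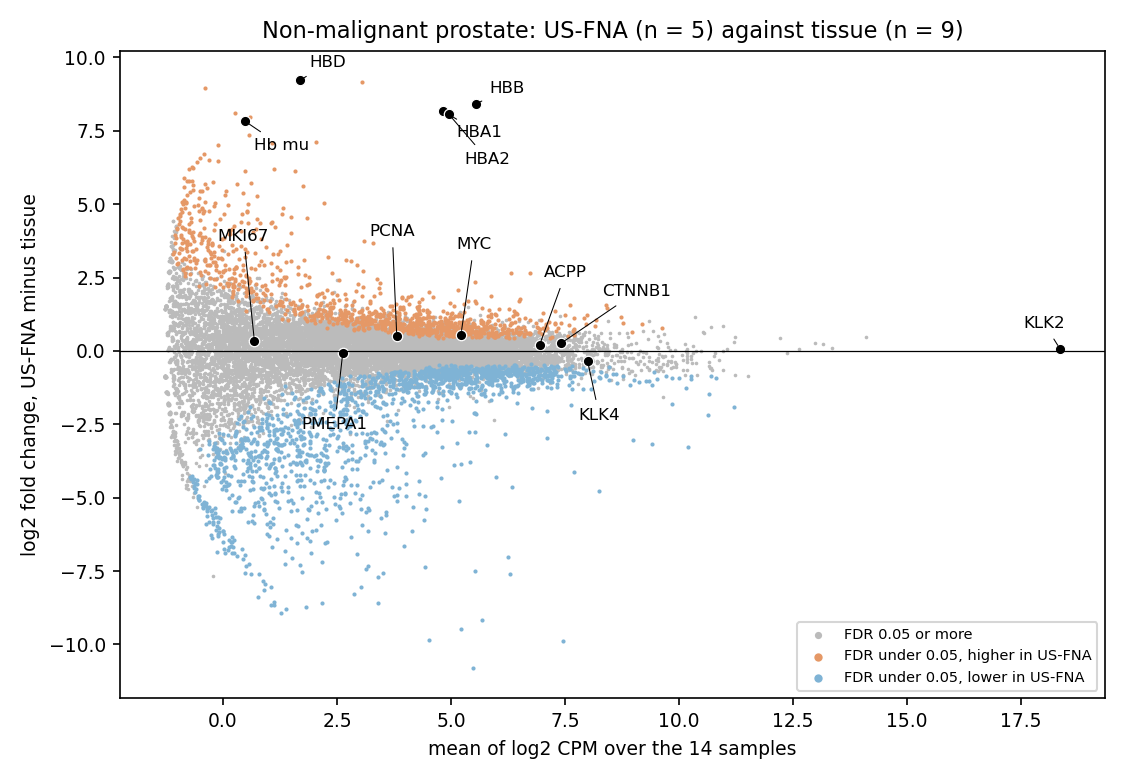
Log2 fold change of US-FNA (n = 5) against tissue (n = 9) for each of 15210 genes, plotted over its mean log2 CPM in the 14 samples, with genes at an FDR under 0.05 in orange (1116 higher) and blue (1613 lower) and the named genes in black. The haemoglobin genes stand at 7.84 to 9.22, the other named genes lie between -0.35 and 0.56, and the far end of the differences is more densely filled below 0 than above.

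The genes lower in US-FNA were more numerous and had moved further than those higher. The median log2 fold change was -1.60 over the genes called lower, 1.15 over those called higher and 0.02 over all genes tested. Up to a change of 1 on the log2 scale the directions were nearly balanced, with 457 genes higher and 526 lower. Between 3 and 5 there were 153 higher and 367 lower genes, and above 5 there were 56 and 187. The lower genes thus made up 59.1% of all calls and 72.6% of those above 3. The balance above 3 depended on the filter on low counts. Without a filter there were 334 higher and 590 lower genes above 3, and with a filter over the 2 non-malignant groups 47 and 364.

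Every US-FNA sample was above every tissue in 348 of the 15210 genes (2.29%) and below every tissue in 563 (3.7%). Among genes that were also called, 333 of the higher (29.8%) and 561 of the lower (34.8%) had no overlap between the groups. DESeq2 called 3306 genes at an FDR under 0.05, 1312 higher and 1994 lower, of which 2661 were called by edgeR in the same direction.

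The genes called with a change above 3 were examined as groups, a choice made after their values were seen, and they are described without a test. The 554 lower genes had a median log2 fold change of -4.33, beside 0.02 over all genes tested. In 86 of them all 5 US-FNA samples had no count, so that the size of the fitted fold change depends on the prior count. With those genes set against a floor of 3 counts over the group, the median was -3.99, and 56 of the 86 still fell by over 3. A mean of at least 10 CPM was reached by 141 of the 554 genes, and 274 had no overlap between the groups.

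The 209 higher genes had a median log2 fold change of 4.15, or 3.93 with the 32 genes absent from all 9 tissues set against the floor. Most of them were scarce, with 18 at a mean of at least 10 CPM, and 64 had no overlap. Only 46 of the 209 passed a filter on low counts made over the non-malignant groups alone, compared with 365 of the 554 lower genes. The number of higher genes depended on US-13, without which 137 were called above 3.

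Since KLK2 takes a large and variable part of each library, the summed counts of these groups were expressed as shares of the counts outside KLK2. The 554 lower genes made up 0.117% in US-7, 0.260% in US-13, 0.248% in US-15, 0.183% in US-32 and 0.150% in US-40. In tissue they made up 1.56% in PT-12 at the lowest, a median of 2.87% and 8.42% in PT-10 at the highest, followed by PT-13 with 5.82%. The genes were chosen for being lower in these same aspirates. The low shares there and their spread thus follow in part from the choice and were not compared with the spread among the tissues. The most abundant of the 554 genes held 12.7% of their counts.

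The 204 higher genes other than haemoglobin made up 0.390% of the counts outside KLK2 in US-7, 0.772% in US-13, 0.272% in US-15, 0.115% in US-32 and 0.0741% in US-40, against 0.00457% to 0.0225% in tissue (median 0.0076%). Haemoglobin on the same scale made up 1.15% in US-7, 2.83% in US-13, 0.819% in US-15, 0.548% in US-32 and 0.0408% in US-40. In both, US-13 was first and US-40 last. The order of the aspirates between them depended on ENSCAFG00000029568, which held 29.5% of the counts of the 204 genes, since without it US-15 (0.251%) came before US-7 (0.221%), unlike in haemoglobin. In malignant tissue the 204 genes made up 0.229% to 0.634%, and in the malignant aspirates 6.91% (US-3) and 1.10% (US-4). However, 88 of the 209 higher genes had entered the test through the malignant samples. The 42 of the 204 that passed the filter over the non-malignant groups made up 0.0885% to 0.262% in malignant tissue (median 0.143%). Haemoglobin made up at most 0.0142% there. In the malignant aspirates these 42 genes made up 4.99% (US-3) and 0.444% (US-4). Without ENSCAFG00000029568 they made up 4.54% in US-3 but 0.104% in US-4, which lay within malignant tissue (0.0885% to 0.262%). Whether the 204 genes belong to blood cells was not tested, since the files do not name them.

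**Figure D3:**
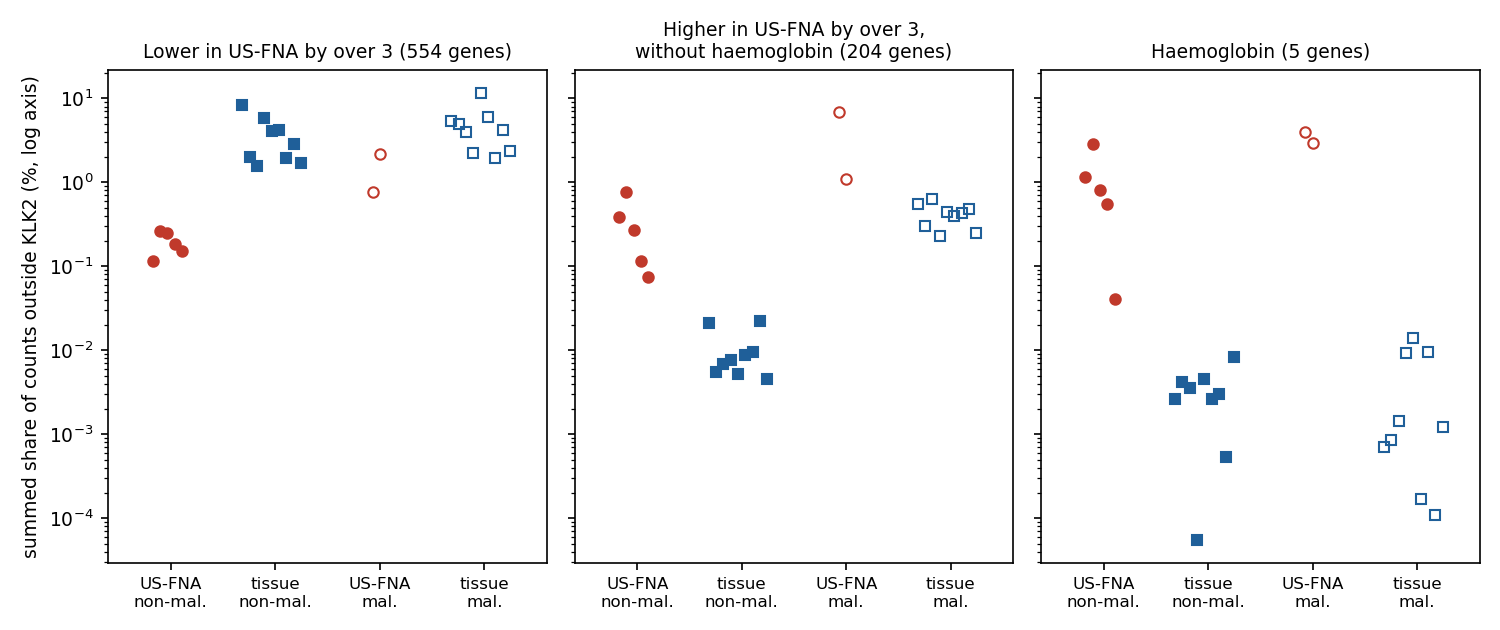
Summed share of the counts outside KLK2 in each sample (log axis, percent) for the 554 genes called lower in US-FNA by over 3, the 204 called higher by over 3 without haemoglobin, and the 5 haemoglobin genes, with non-malignant samples filled, malignant samples open, US-FNA as circles and tissue as squares. The lower genes stay at or under 0.260% in the 5 non-malignant aspirates and at or above 1.56% in every non-malignant tissue. The malignant aspirates reach 0.765% (US-3) and 2.18% (US-4), against 1.97% to 11.7% in malignant tissue, so that US-4 lies inside that range.

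The diversity of the libraries was compared next. The 10 most abundant genes of each sample took 46.8% ± 3.67 (SD, n = 5) of the counts in US-FNA and 41.1% ± 11.2 (SD, n = 9) in tissue, a difference of 5.71 percentage points (two-sided exact permutation test, p = 0.317). The difference was 2.86 with KLK2 left out of the counts (exact permutation p = 0.311), and ran from 3.42 without PT-17 to 7.32 without PT-12 with each sample left out (exact permutation p at least 0.187). Of the 22 genes that were among the 10 most abundant in any sample, 6 were so in every sample. Of the 22, HBB, HBA2 and KLK2 have names here.

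With every library thinned to 3355926 counts, 11937 genes had at least 5 counts in US-7, 12924 in US-13, 11930 in US-15, 11572 in US-32 and 11757 in US-40. The tissues ranged from 11093 in PT-12 over a median of 12122 to 13238 in PT-17. The means were 12024 ± 525 (SD, n = 5) and 12081 ± 782 (SD, n = 9), a difference of -57.1 genes that was smaller than the spread within either group (two-sided exact permutation test, p = 0.884). Its sign depended on the detection minimum and on KLK2, with differences of 507 genes at a minimum of 1 count (exact permutation p = 0.413) and 37.9 genes with KLK2 removed before thinning (exact permutation p = 0.895).

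The 3 tissues with the lowest KLK2 shares, PT-17, PT-13 and PT-10, had 13238, 12712 and 12948 genes, and the aspirate with the lowest share, US-13, had 12924. The next in order did not follow, with 11572 genes in US-32, the fewest of the aspirates, and 11293 in PT-11. With KLK2 removed before thinning, these tissues had 12870, 12476 and 12775 genes. Among the aspirates US-13 also had the highest haemoglobin share (1.99%) and the lowest depth. Its share of alignments that the counting placed in no gene was the highest as well, at 70.3% against 61.9% to 66.9% in the others.

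**Figure D4:**
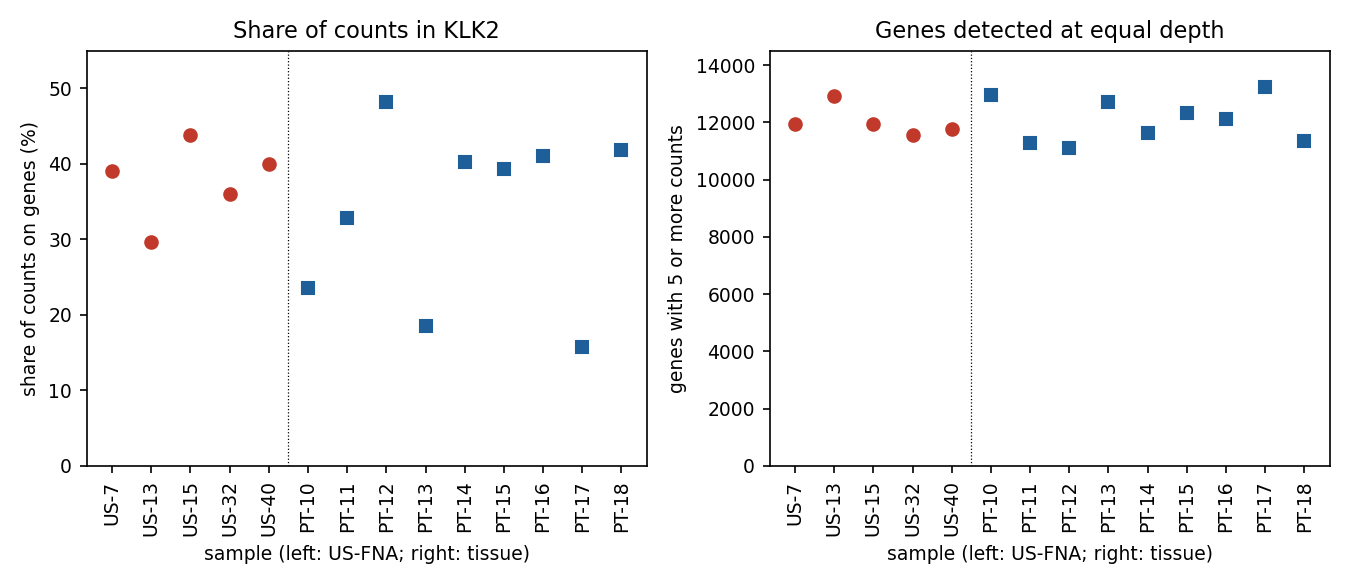
Share of the counts on genes taken by KLK2 (left, percent) and number of genes with 5 or more counts after thinning to 3355926 counts (right), for each US-FNA sample (circles) and tissue (squares). In both panels the US-FNA samples lie within the tissue range, at 29.6% to 43.8% against 15.7% to 48.2% and at 11572 to 12924 against 11093 to 13238 genes.

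Pearson's correlation of log2 CPM across genes, which are not independent replicates, was used to describe how alike the samples were. Pairs of aspirates had r between 0.886 and 0.955 (median 0.930), and pairs of tissues between 0.887 and 0.962 (median 0.926). Pairs of an aspirate and a tissue were less alike, with r from 0.780 to 0.919 (median 0.878). The sample closest to each was of its own type in all 14 cases. US-7 and US-40, which differed widely in HBB, were the closest pair of aspirates with r = 0.955.

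In a principal component analysis of log2 CPM over the genes tested, PC1 held 35.7% of the variance and PC2 13.8%. US-FNA samples scored -82.5 (US-7) to -58.9 (US-13) on PC1 and tissues 6.63 (PT-12) to 86.6 (PT-10). The types were also apart on PC1 when KLK2 and the haemoglobin genes were left out, with 35.4% of the variance. On PC2 the aspirates spread from -66.0 in US-13 over -33.4 in US-15, -25.4 in US-32 and 15.7 in US-7 to 59.3 in US-40, and enclosed all tissues. This was not their order in haemoglobin, where US-7 came next to US-13.

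**Figure D5:**
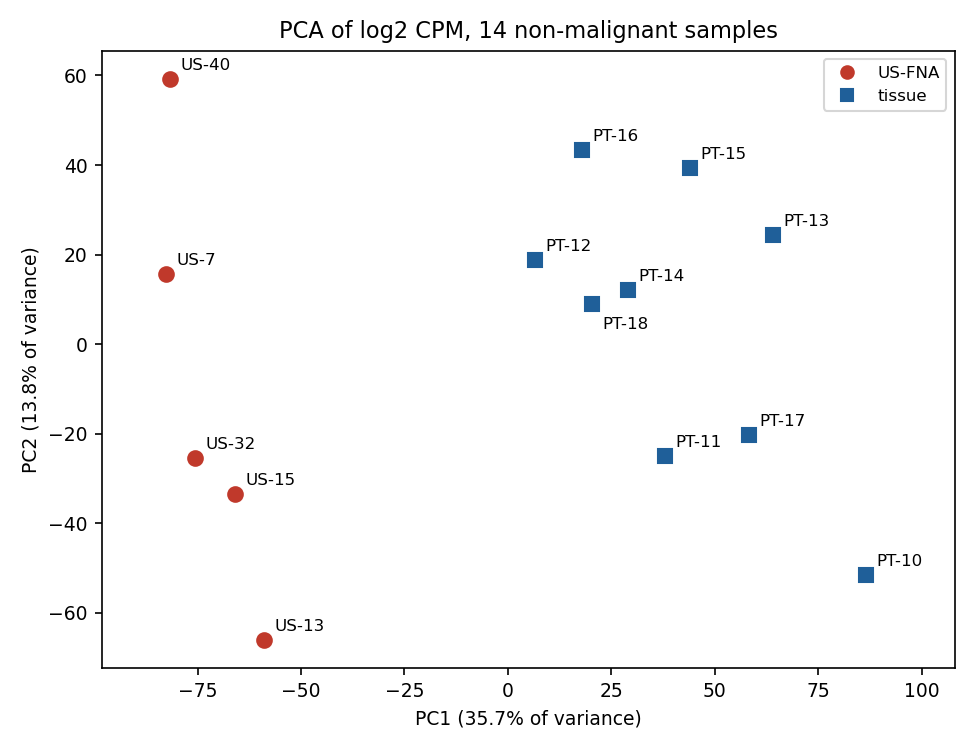
Scores of the 14 non-malignant samples on the first principal components of log2 CPM, US-FNA as circles and tissue as squares. US-FNA samples lie at -58.9 or lower on PC1 (35.7% of the variance) and tissues at 6.63 or higher, while PC2 (13.8%) spreads the aspirates from -66.0 to 59.3.

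Finally, the difference between US-FNA and tissue was set beside the one in malignant samples, which share no sample with it. There, 2 aspirates (US-3 and US-4) of neutered dogs were compared with 9 tissues, 6 of them from neutered dogs, so that group size and neutering differ as well. The dogs were 10 (US-3) and 9 (US-4) years old, and those with malignant tissue 8 to 12 years. The dog of US-3 was aspirated again right after euthanasia, and US-3 may itself be that later sample. This dog may also have given a malignant tissue, but the labels pair no samples and all were treated as independent. In the malignant samples 407 of 15260 genes (2.67%) were called by edgeR at an FDR under 0.05, 376 higher (2.46%) and 31 lower (0.203%) in US-FNA. The haemoglobin genes had log2 fold changes of 7.12 for subunit mu to 10.37 for HBD, with edgeR FDRs of at most 0.00989. The study had named them for a rise in both non-malignant and malignant aspirates, so this rise is not an independent repeat. HBB amounted to 25630 CPM in US-3 and 16430 in US-4, against at most 51.7 in malignant tissue.

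Of the 554 genes lower by over 3 in non-malignant US-FNA, 553 were tested in malignant samples, and 489 of them (88.4%) had a negative log2 fold change there, with a median of -2.64. Of the 209 genes higher by over 3, 186 of 207 (89.9%) had a positive one, with a median of 3.36. Over all genes, the direction was the same for 9501 of 15174 (62.6%) and the median was -0.09. The direction there is partly set by the filter, which used the malignant samples too: 29 of the 554 lower genes and 88 of the 209 higher ones would not have reached its minimum in the non-malignant samples alone. Among the genes that passed a filter over the 2 non-malignant groups, 317 of 365 lower genes (86.8%, median -2.58) and 44 of 46 higher genes (95.7%, median 4.30) had the same direction, beside 7428 of 11942 of all genes (62.2%). The malignant comparison called 6 of these 365 lower genes and 33 of the 46 higher ones in the same direction, beside 26 lower and 261 higher among the 11942. Without haemoglobin and ENSCAFG00000029568, the higher genes past this filter made up 4.54% of the counts outside KLK2 in US-3 but 0.104% in US-4. The latter lay within malignant tissue (0.0885% to 0.262%), so that their summed rise there rests on US-3.

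The difference between US-FNA and tissue itself depended on the diagnosis in 202 of 15296 genes (1.32%), by the interaction term of an edgeR fit of all 25 samples at an FDR under 0.05. Among these were 36 of the 554 lower genes and none of the 209 higher genes. Both lists were chosen for large changes in the non-malignant samples, which also enter this test. Their counts thus follow in part from the choice. Of the 13 named genes, none passed this test, with FDRs of at least 0.421. The interaction of KLK2 was -4.10 (SE 2.29, edgeR FDR 0.421), and that of HBB 1.89 (SE 1.61, edgeR FDR 0.624).

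The falls of the strongest pair of IDs were smaller in malignant samples. These IDs were chosen for their large falls in the non-malignant samples, so that part of this difference can follow from the choice. ENSCAFG00000008756 had 3.89 CPM in US-3 and 36.2 in US-4, against 4.06 to 703 in malignant tissue, with a log2 fold change of -3.16 (edgeR FDR 0.471). ENSCAFG00000018560 had 106 CPM in US-3 and 52.4 in US-4, against 26.8 to 1686, with a log2 fold change of -2.32 (edgeR FDR 0.531). US-4 thus lay within the malignant tissues for both IDs, as did US-3 for the latter, while US-3 was just under the lowest tissue for the former. The interaction terms were 7.63 (SE 1.83, edgeR FDR 0.0381) for the former and 7.54 (SE 1.53, edgeR FDR 0.016) for the latter. With only 1 malignant aspirate kept, so that the spread came from the other groups alone, 13 genes were called in the malignant comparison and 72 by the interaction without US-3, and 852 and 588 without US-4.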

How the data were processed

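RNA of the 14 non-malignant samples had been made into libraries with the NEBNext Ultra kit. The deposited values are read counts for each Ensembl gene ID, which the authors had not normalised. Per the submitters' processing notes, these were made with bcl2fastq 2.15.0.4, Trimmomatic 0.32, TopHat2 and HTSeq on CanFam3.1. Counting used the default settings of htseq-count, which read strand, but whether the kit kept strand is not given in the sources used here, so that overlapping antisense genes cannot be told apart with certainty. Sequencing is described as single-read, although mapped reads are given as pairs, and this was not settled. Alignments that the counting placed in no gene (61.9% to 70.3% in US-FNA, 58.8% to 68.8% in tissue, a difference in means of 2.83 percentage points, two-sided exact permutation test, p = 0.137) entered neither library sizes nor tests. If the kit did not keep strand, they include alignments within a gene but on its opposite strand.

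Of 32220 IDs, 0 matched the RefSeq gene table (assembly UU_Cfam_GSD_1.0) and names for 13 were taken from the study. A further gene of the set is not reported here. The named genes were these 13, the IDs with the largest change in each direction among genes called at an FDR under 0.05 whose mean reached 1 CPM and whose groups did not overlap, and the ID with the lowest FDR, within a limit of 2 IDs that rose and 2 that fell. The members and gene lists were chosen with earlier results of these data known. Marker lists of other cell types could not be used without gene names.

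In R 4.3.3, genes were kept by filterByExpr of edgeR 4.0.16 with a minimum count of 10 and a minimum total of 15 over the 4 groups. It kept 15296 genes, of which 15210 had counts in the 14 samples. Counts were normalised by TMM and the 2 non-malignant groups were compared by the two-sided quasi-likelihood test, with Benjamini-Hochberg adjustment. Standard errors were taken as the size of the log2 fold change over the root of the F statistic, and 95% intervals use the normal quantile. DESeq2 1.42.0 (Wald test) was run on all IDs. Exact permutation tests, two-sided, compared single values, with Python 3.11.15, NumPy 2.4.6, SciPy 1.17.1 and matplotlib 3.10.9. Libraries were thinned without replacement with seed 1. The models were tested on simulated data. PCA used log2 CPM with a prior count of 2.

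Alternatives were DESeq2, its size factors, no filter or a filter over the 2 groups, 1 fit of all 4 groups, KLK2 or haemoglobin left out, age as a covariate, a minimum change, other denominators and detection minimums, and each sample left out. The lists of genes changed by over 3 with all their alternatives, and the malignant aspirates left out, were chosen after seeing the data.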

Additional observations from a re-analysis of the deposited data

Results flagged for a closer look

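The highest and the lowest sample were tested for their gap to the others in 50 sets of values. Each set held the 5 non-malignant aspirates or the 9 non-malignant tissues. In 3 sets a sample stood apart at the 95% level, where chance gives about 1 in 20. Haemoglobin subunit mu was highest in the tissue PT-11, at 0.491 CPM or 2 counts, while 7 of the 9 tissues had no count. PCNA was lowest in US-32 among the aspirates, at 9.06 CPM against 18.6 or more in the others. US-13 had the most genes with 5 or more counts at equal depth among the aspirates, 12924 against at most 11937 in the others. With KLK2 removed before thinning these were 12923 and 12369, and US-13 no longer stood apart at that level. No sample was removed for this.

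The difference between US-FNA and tissue varied with the diagnosis in 202 genes by the edgeR interaction test at an FDR under 0.05. For ENSCAFG00000008756 the log2 fold change was higher by 7.63 in malignant than in non-malignant samples (edgeR FDR 0.0381), and for ENSCAFG00000018560 by 7.54 (edgeR FDR 0.016). Both IDs had been chosen for the largest falls without overlap in the non-malignant samples, so that part of these differences can follow from the choice. Only 2 malignant aspirates enter this test and both dogs were neutered, so diagnosis and neutering cannot be told apart.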

How the results depend on the processing

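No gene with a name gained or lost its call in any alternative that tested it, with edgeR or DESeq2 FDRs of at most 0.000269 for the haemoglobin genes and at least 0.0671 for the 8 other genes with names, and the 4 IDs stayed at or under 0.000442. Haemoglobin subunit mu did not pass the filter over the 2 groups and was not tested there. The haemoglobin share differed by 7.51 to 9.10 with each sample left out (exact permutation p at most 0.0014). The share of calls that were lower stayed between 57.6% and 63.2% at an FDR under 0.05 without a minimum change. It was 62.3% above a change of 1, 69.2% above 2, 72.6% above 3 and 73.8% above 4. Above 3 the balance depended on the filter, with 590 lower and 334 higher genes without one. With a filter over the 2 groups there were 364 lower and 47 higher genes. The cause of the changes below was not tested.

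The 2729 genes at an FDR under 0.05 became 1653 in 1 fit of all 4 groups and 1746 with a change above 1 in addition, and 1928 to 2775 with each sample left out. The 2 genes at 0.00001 became 449 with DESeq2, 38 without a filter, 1 with a filter over the 2 groups, 0 in 1 fit of all 4 groups and 1 with age as a covariate, and 0 to 12 with each sample left out (12 without US-40). The 449 of DESeq2 became 2 with edgeR, 248 in 1 fit of all 4 groups, and 271 (without US-7) to 456. The 407 genes of the malignant comparison became 1180 with DESeq2, and 13 to 852 without US-3 or US-4. The 202 of the interaction became 596 with DESeq2, and 72 to 588. The 554 genes lower by over 3 became 364 with a filter over the 2 groups and 327 above 4, and 456 to 633. The 209 higher genes became 334 without a filter, 47 with a filter over the 2 groups, 327 above 2 and 116 above 4, and 137 (without US-13) to 238.

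The difference in detected genes of -57.1 turned to 507 at a minimum of 1 count and 37.9 with KLK2 removed, and ran from -282 to 87.5 with each sample left out (exact permutation p at least 0.413 throughout). PC1 held 68.1% over the 500 most variable genes. With each sample left out, log2 fold changes without a call changed sign for KLK2 (-0.05163 to 0.24) and PMEPA1 (-0.93 to 0.17), and moved for KLK4 (-0.66 to -0.22), ACPP (0.01 to 0.56) and MKI67 (0.09 to 0.61).

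The comparison rests on 5 aspirates and 9 tissues of different dogs, and extraction, diagnosis method and time of sampling cannot be told apart from the needle. Genes with a few counts in 1 group, such as haemoglobin subunit mu and ENSCAFG00000015768, have fold changes set largely by counts at the floor. Without gene names, the cell types behind the calls were not tested.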
